A study of Mus musculus with 16 samples.

Results

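The regions described here were called as peaks of single-strand breaks in DMSO-treated wild type cells, in DMSO-treated Tdg knockout cells and in talazoparib-treated Tdg knockout cells, but not in talazoparib-treated wild type cells. They were chosen by presence and absence in 4 peak lists: peaks of chromosomes 1 to 19 that shared at least 1 bp were merged, and a merged region was a member when it held peaks of WT DMSO, KO DMSO and KO talazoparib and none of WT talazoparib. This gave 3735 members among 60228 merged regions, or 6.20% of them. All cells were mouse embryonic stem (ES) cells of strain C57BL/6JRj, cultured in 2i medium with LIF. The 2 genotypes were labelled wild type and KO; Tdg-depleted, and the treatments were DMSO or 5 nM talazoparib for 24 h. Per the labels' protocols, the knockout was made by excising a Tdg minigene with 5 uM 4-OHT for 2 h, and that text is the same for every sample, so whether the wild type cells also received 4-OHT cannot be read from it. Single-strand break sequencing was done on 12 immunoprecipitated (IP) libraries, 3 per condition, and 4 input libraries, 1 per condition. The authors' lists hold 1 pooled value per peak and condition, so every comparison is between lists, with no replicate error and no test. Each interval given in parentheses is an exact 95% binomial interval, or an order-statistic interval for a median, and covers counting error only.

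SSB-seq labels free 3′ ends at nicks: E. coli DNA polymerase I adds digoxigenin-marked nucleotides there, and labelled fragments are pulled down and sequenced. Thymine DNA glycosylase, TDG, excises thymine from G:T mismatches and removes oxidised forms of 5-methylcytosine, mostly at CpG sites, as a step of active DNA demethylation, and base excision repair then passes through a single-strand break. PARP1 binds such breaks and recruits repair factors. Talazoparib blocks the catalytic activity of PARP enzymes and holds PARP1 on DNA, and it is used against tumours that cannot repair breaks by homologous recombination.

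The pooled lists differed in length and depth, which bears on every absence. On chromosomes 1 to 19 the WT talazoparib list was the shortest, with 15343 peaks against 28243 in WT DMSO, 35020 in KO DMSO and 23559 in KO talazoparib. The IP totals worked out from the normalized values were 83.8 M tags for WT talazoparib and 66.4 to 87.0 M for the others, and its input total of 24.5 M was the lowest, with 24.8 to 38.1 M for the others. The flow cells named in the labels were not shared between genotypes, and an effect of genotype and one of flow cell cannot be told apart. The lists hold no expression values, so neither the ES cell identity nor the loss of Tdg could be checked against marker levels. The lists give no WT talazoparib signal at the members, so a missing peak means only that none was called: the lowest fold over input in any list was 4.00, and a signal just short of that is also missing.

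Sequences of 4 members are shown, each the central 300 bases of the stretch shared by the peaks of the 3 lists, in GRCm38.p6, the assembly behind mm10. They are the first 3 promoter members and a strong member centred in an intron, in the order of normalized tags used below. The intronic member, in Dbp, was centred only 574 bp past the start, so its region of 4790 bp also spans that start. Capitals mark CpG dinucleotides, the sites on which TDG mostly acts. The intronic member comes first.
Intronic member in Dbp, chr7:45705863-45706162, plus strand: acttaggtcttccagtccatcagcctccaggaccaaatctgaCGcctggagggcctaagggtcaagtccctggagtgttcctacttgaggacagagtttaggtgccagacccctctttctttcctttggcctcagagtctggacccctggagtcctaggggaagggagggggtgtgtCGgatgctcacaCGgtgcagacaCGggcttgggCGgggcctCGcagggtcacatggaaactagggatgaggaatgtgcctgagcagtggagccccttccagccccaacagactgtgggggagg
The 3 promoter members follow.
Promoter member of Fiz1, Gm44973 and Zfp524, chr7:5014972-5015271, plus strand: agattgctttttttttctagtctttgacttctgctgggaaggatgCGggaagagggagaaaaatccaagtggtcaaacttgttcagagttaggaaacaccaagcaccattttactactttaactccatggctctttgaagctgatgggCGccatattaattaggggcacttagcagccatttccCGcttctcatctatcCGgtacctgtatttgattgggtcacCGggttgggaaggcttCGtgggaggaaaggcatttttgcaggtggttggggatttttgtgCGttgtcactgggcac
Promoter member of Schip1, chr3:68493630-68493929, plus strand: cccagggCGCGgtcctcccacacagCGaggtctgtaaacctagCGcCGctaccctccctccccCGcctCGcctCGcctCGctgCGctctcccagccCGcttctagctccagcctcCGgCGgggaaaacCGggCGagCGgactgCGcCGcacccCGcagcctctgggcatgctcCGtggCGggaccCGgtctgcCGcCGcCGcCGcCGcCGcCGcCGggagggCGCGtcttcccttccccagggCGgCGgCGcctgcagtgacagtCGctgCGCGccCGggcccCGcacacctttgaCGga
Promoter member of Tmem259, chr10:79984883-79985182, plus strand: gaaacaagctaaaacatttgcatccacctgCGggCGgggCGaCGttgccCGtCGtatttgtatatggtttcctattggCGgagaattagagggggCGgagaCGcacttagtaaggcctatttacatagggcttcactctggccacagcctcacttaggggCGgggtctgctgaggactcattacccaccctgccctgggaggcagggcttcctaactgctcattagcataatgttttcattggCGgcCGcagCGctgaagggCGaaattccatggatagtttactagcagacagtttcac
These 4 stretches differed widely in CpG content. The Dbp stretch held 6 CpG and the Fiz1 stretch 7. The Tmem259 stretch held 14, and the Schip1 stretch, the densest of the 4, held 41 at a GC content of 76.0%.

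Members were ordered by the lowest of their 3 within-list percentile ranks of the normalized tag count (tags per 10 M, that is 10000000, IP tags, at the highest peak of the list in the region), so that a member stands early only if it was strong in all 3 lists. Of the first 25 members, 16 were centred in promoters, 4 in introns, 1 in an exon and 4 between genes. Among those in introns, the members in Dbp, Pip5k1c and Etv5 were centred only 574, 673 and 376 bp past the nearest protein-coding start. The remaining intronic member, in Lama1, was centred 44137 bp past it. The first of the 25 was an intergenic region of 875 bp on chromosome 13, 346 kb from the nearest protein-coding start, that of the polo-like kinase gene Plk2. Its normalized tag count was 145 in WT DMSO, 131 in KO DMSO and 222 in KO talazoparib. Tags per bp of its IP peaks stood at 76.7, 55.4 and 77.8 times the average over the genome in these lists. Its input count was also high, at 111, 80 and 142 tags, so the fold over input was only 4.98, 4.06 and 4.45.

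The second member was centred in an intron of Dbp, a circadian transcription factor gene, 574 bp past its start (chromosome 7, 45703463 to 45708253), and reached 78.6, 104 and 115 normalized tags in WT DMSO, KO DMSO and KO talazoparib. The third spanned the shared promoter of the zinc finger genes Fiz1 and Zfp524 (chromosome 7, 5012828 to 5016428), with 61.1, 88.3 and 78.9 tags, and lay only 0.776 kb from a WT talazoparib peak. An intergenic region 15.5 kb from the start of Adgre5, which encodes an adhesion receptor, had 62.2, 76.8 and 74.0 tags. Its input count was also high, at 49.5, 38.5 and 33.0 tags, and its fold over input was 4.79, 4.95 and 6.35. The intergenic members near Plk2 and Adgre5 had only 0.571 and 0.724 CpG per 100 bp, against 4.2 at Dbp and 4.39 at Fiz1. Repeat-masked bases made up 67.4% of the Plk2 member and 58.1% of the Adgre5 member.

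The promoter members among the first 25 belonged to genes of varied function. The promoter of Schip1, a schwannomin-interacting protein gene, had 40.3 tags in WT DMSO, 90.6 in KO DMSO and 77.3 in KO talazoparib. That of Nfic, a nuclear factor I transcription factor, had 34.7, 94.9 and 60.8 tags, and this member lay only 0.647 kb from a WT talazoparib peak. The start shared by Mfsd11 and Srsf2, the latter a splicing factor, had 42.0, 69.6 and 58.3 tags at 10.3 CpG per 100 bp, the highest CpG density of the 25. Further promoter members belonged to Cic, a transcriptional repressor; Birc6, an inhibitor of apoptosis; Med16, a Mediator subunit; Pop7, a subunit of RNase P; and Nsun2, an RNA methyltransferase that shares its start with Srd5a1. The promoter member of Fam72a, whose product is known to bring about degradation of the uracil glycosylase UNG2, had 30.7, 73.2 and 78.5 tags and its nearest WT talazoparib peak 129 kb away. For the Cic member that peak was 1.64 kb away. In the body of Etv5, an ETS transcription factor gene active downstream of FGF signalling, the member had 43.7, 52.1 and 65.3 tags.

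WT DMSO gave the lowest of the 3 tag counts at 23 of the 25 and the highest at none, while KO talazoparib gave the highest at 16 and KO DMSO at 9. The same order was common over all members: WT DMSO was the lowest of the 3 at 70.0% (68.5 to 71.4). It was also the lowest at 81.2% (80.2 to 82.2) of the 5638 regions with peaks in all 4 lists. Over whole lists the median was likewise lower in WT DMSO, at 4.83 normalized tags, than in KO DMSO, at 6.87, and KO talazoparib, at 7.45. These counts were used by the choice of the members and are given as a description.

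**Figure D1:**
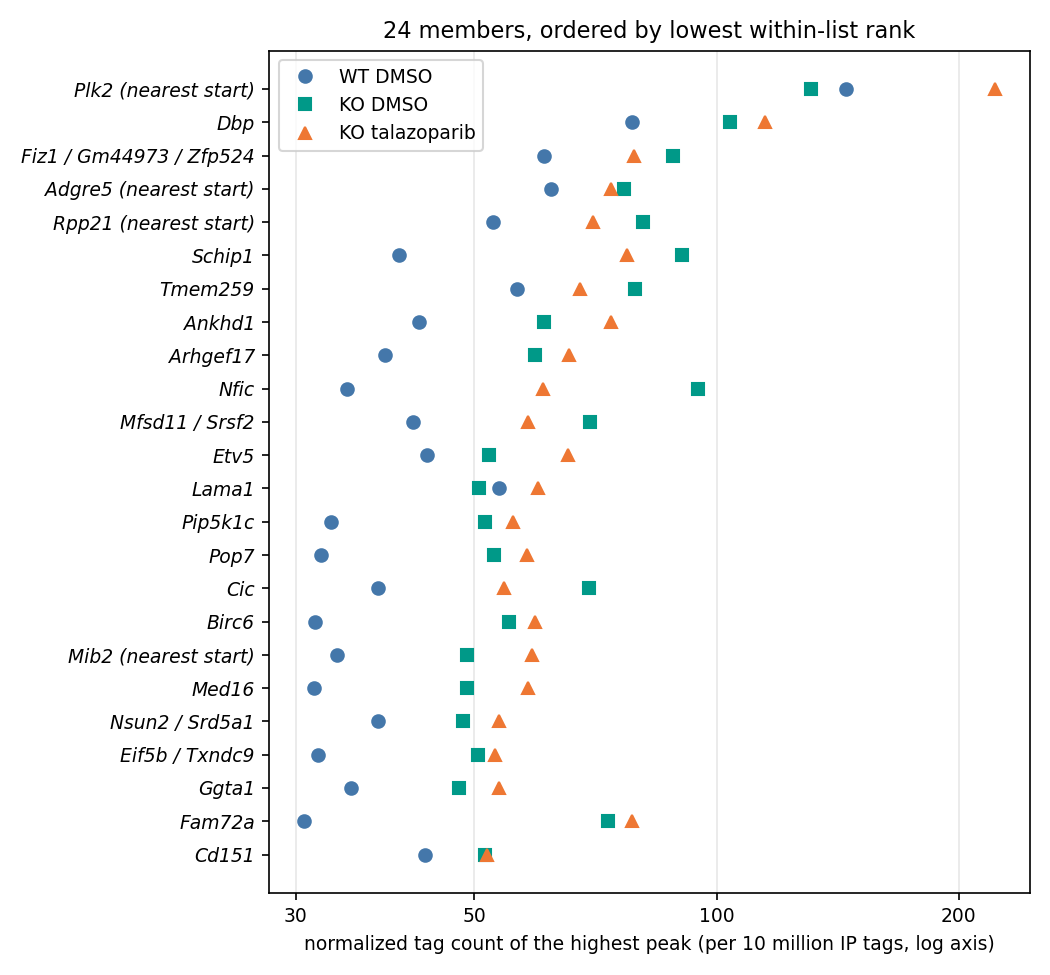
Normalized tag count (tags per 10 M IP tags, log axis) of 24 of the 25 members with the highest lowest-of-3 rank, 1 point per list with a peak; no WT talazoparib point exists because those regions hold no such peak. The WT DMSO points run from 30.7 to 145 and lie left of both KO points at 22 of the 24 members.

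Against the regions called in all 4 conditions, the members lay less at promoters and more in introns and between genes. A promoter, taken from 1 kb before a transcript start to 100 bp after it, held the centre of 1495 members, 40.0% (38.5 to 41.6), against 67.3% (66.1 to 68.6) of the all-list regions and 22.2% of all merged regions. Introns held 26.5% of members (25.1 to 28.0) against 13.5% (12.6 to 14.4) of the all-list regions. The corresponding shares between genes were 20.8% (19.5 to 22.1) and 9.22% (8.48 to 10.0). Exons held 7.68% and 7.27%, with overlapping intervals. The promoter share was also below that of the all-list regions in the sets missing from 1 other list: 47.1% (44.4 to 49.8) of the 1345 regions missing only in KO talazoparib, 49.4% (46.5 to 52.3) of those missing only in WT DMSO and 34.0% (29.7 to 38.5) of those missing only in KO DMSO. A promoter share below that of the all-list regions is thus shared by all 4 such sets, and the members' share lay between those of the other 3.

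**Figure D2:**
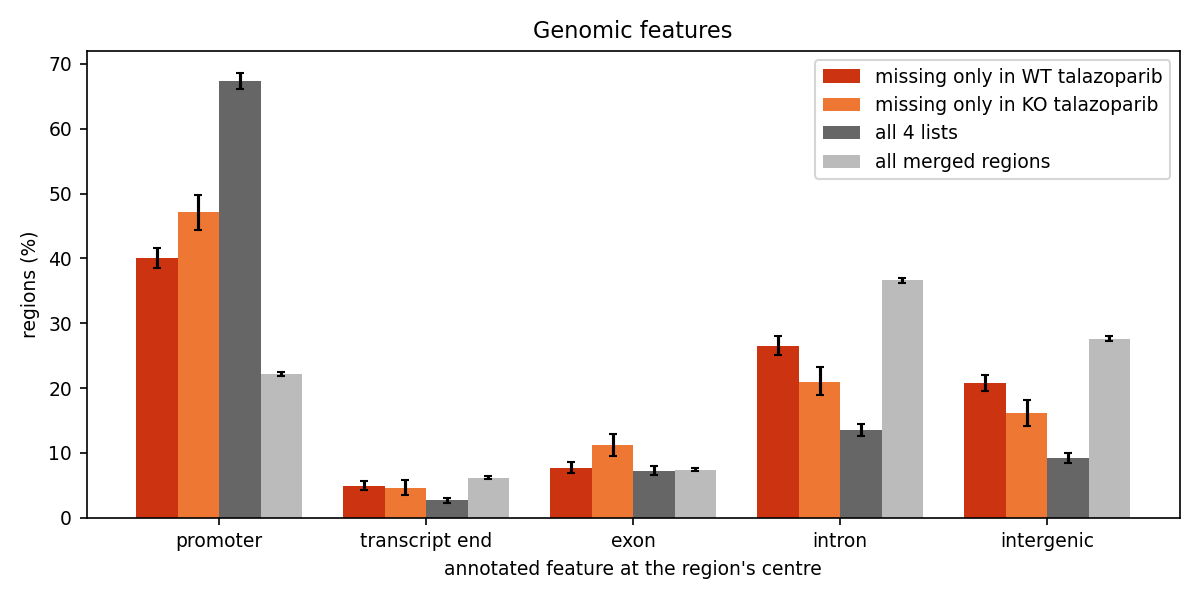
Share of regions (%) by the annotated feature at their centre, for the members, the regions missing only in KO talazoparib, the regions of all 4 lists and all merged regions; error bars are exact 95% binomial intervals. Members stood at 40.0% in promoters and 26.5% in introns, between all merged regions and the regions of all 4 lists.

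Around protein-coding starts the members lay on both sides, slightly more often downstream. Within 1 kb of a start lay 47.5% (45.9 to 49.1) of members, and 46.9% (44.5 to 49.2) of these were centred on the upstream side. For the all-list regions the share within 1 kb was 76.8%, with 49.6% (48.1 to 51.1) of them upstream. At the other end, 8.30% (7.43 to 9.23) of members were over 50 kb from any protein-coding start, against 3.37% (2.91 to 3.87). A protein-coding promoter was hit by 1352 members, and 143 of these lay at promoters of more than 1 protein-coding gene, as at Nsun2 and Srd5a1.

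Members were poorer in CpG than the all-list regions. The median CpG density was 2.59 per 100 bp (2.48 to 2.79) in members and 5.17 (5.08 to 5.24) in the regions of all 4 lists, with 1.75 over all merged regions. The other sets missing from 1 list were also below the all-list regions, with 4.24 (3.89 to 4.58) for KO talazoparib, 4.16 (3.89 to 4.40) for WT DMSO and 2.35 (1.95 to 2.82) for KO DMSO, the last with an interval that overlaps that of the members. Median GC content was 53.1% (52.8 to 53.4) against 56.3% (56.1 to 56.5). Within a kind of feature the medians lay closer. They were 5.23 (5.07 to 5.42) and 5.73 (5.66 to 5.80) CpG per 100 bp in promoters, 1.62 (1.56 to 1.70) and 2.21 (2.05 to 2.45) in introns, and 1.48 and 1.78 between genes. The widest gap was in exons, at 4.32 (3.84 to 4.82) and 6.10 (5.80 to 6.40). Members in promoters and exons were thus richer in CpG than those in introns and between genes. Repeat-masked bases made up a median of 11.7% of a member and 9.84% of an all-list region.

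**Figure D3:**
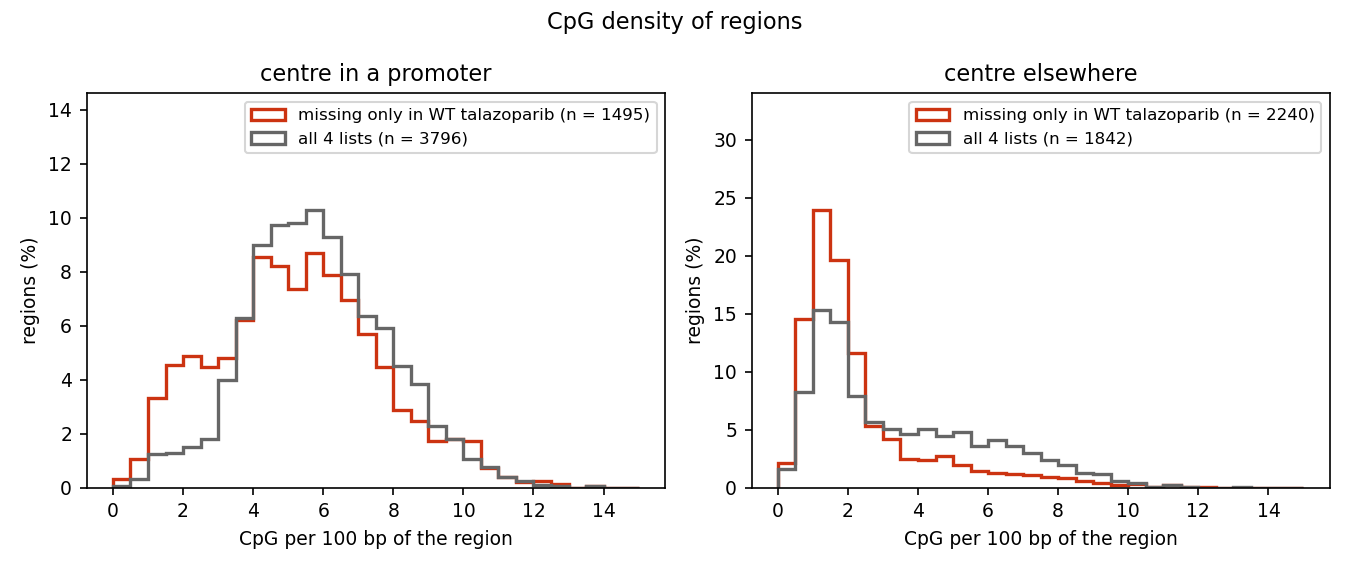
Share of regions (%) by CpG density (per 100 bp, bins of equal width) for members and for regions of all 4 lists, drawn separately for regions centred in a promoter and for the others. In promoters the medians are 5.23 and 5.73; elsewhere the members peak more sharply at low CpG density.

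The placing of the members depended on how strictly peaks were taken. With only peaks of fold 6 or more taken from every list, WT talazoparib included, 493 regions met the rule. Of these, 68.6% (64.3 to 72.6) were at promoters, with a median of 5.36 CpG per 100 bp. They need not be a part of the 3735, since a region whose WT talazoparib peak fell below the cut can also count. In the all-list regions the median fold of the WT talazoparib peak was 5.82. The all-list regions then numbered 337, with 77.7% (72.9 to 82.1) at promoters and 5.56 CpG per 100 bp (5.24 to 5.92), so the gap in promoter share shrank and the CpG medians had overlapping intervals. The order against the regions missing only in KO talazoparib turned, since these were then at 59.8% (55.1 to 64.4) in promoters, below the members. With all lists shortened to the 15343 best-scoring peaks, 1589 members were left, with 54.6% (52.1 to 57.1) at promoters against 73.3%, and 4.45 against 5.64 CpG per 100 bp. The regions missing only in KO talazoparib were then at 55.5% (52.3 to 58.6) in promoters, with an interval that overlaps that of the members.

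Of the 9373 regions with peaks in WT DMSO, KO DMSO and KO talazoparib, 39.8% lacked a WT talazoparib peak, which is the same count of 3735 read against its background. The corresponding share was 19.3% for KO talazoparib (1345 of 6983 regions), 17.2% for WT DMSO (1168 of 6806) and 7.66% for KO DMSO (468 of 6106). These shares moved with the length of the lists: with lists of equal length they came to 31.2% (29.9 to 32.4) for WT talazoparib, 21.9% for KO talazoparib, 24.0% for WT DMSO and 24.8% for KO DMSO. With peaks of fold 6 or more they were 59.4% (56.0 to 62.8), 56.8% (53.2 to 60.3), 55.8% (52.2 to 59.3) and 24.1% in the same order, and the first 3 intervals overlapped.

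The share without a WT talazoparib peak varied with strength. With the 9373 regions cut into 5 groups of equal size by their lowest within-list tag rank, it was 72.7% in the lowest group, then 54.6%, 38.3% and 22.1%, and 11.5% (10.1 to 13.1) in the highest. For KO talazoparib the lowest and highest groups gave 37.9% and 2.72%. By CpG density the share was 65.0% and 52.9% in the 2 lowest groups and 29.2%, 25.9% and 26.3% in the others, so that it hardly changed above about the middle of the range. By feature it was 28.3% (27.0 to 29.5) at promoters, 41.2% in exons, 55.2% at transcript ends, 56.6% in introns and 59.9% (57.1 to 62.6) between genes. CpG density and tag rank went together, so both were taken at once, in 3 groups each. Among the weakest regions the share without a peak was 75.3% (73.3 to 77.2) at low CpG density and 45.4% (41.4 to 49.5) at high density. Among the strongest it was 24.3% (18.8 to 30.5) and 14.1% (12.3 to 16.0).

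**Figure D4:**
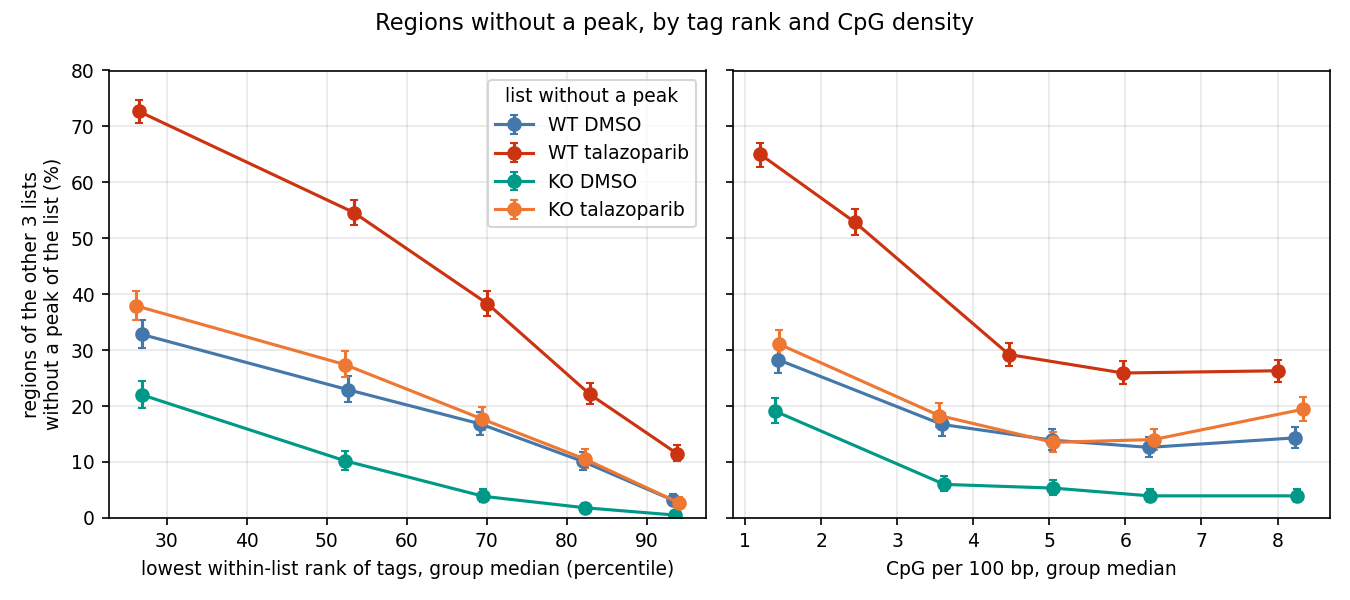
Share of regions of the other 3 lists (%) that lack a peak of the list named in the legend, in 5 groups of equal size by lowest within-list tag rank (left) and by CpG density per 100 bp (right); points stand at each group's median and bars are exact 95% binomial intervals. The WT talazoparib line runs from 72.7% to 11.5% over tag rank and lies above the other 3 lists in every group of both panels.

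Across chromosomes the share of such regions without a WT talazoparib peak ran from 35.4% (30.6 to 40.4) on chromosome 3 to 44.4% (40.2 to 48.7) on chromosome 17. Members per megabase ran from 0.856 on chromosome 3 to 2.52 on chromosome 17, where 239 members lay. All merged regions were also unevenly spread, with 2677 on the 160 Mb of chromosome 3 and 3134 on the 95.0 Mb of chromosome 17. Members made up 5.12% and 7.63% of these, and the lowest such share was 4.29%, on chromosome 16.

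The members were weaker and narrower than the all-list regions in the lists that chose them. Their median normalized tag count was 7.24 in WT DMSO, 11.9 in KO DMSO and 10.2 in KO talazoparib, against 13.8, 23.1 and 21.9 at the regions of all 4 lists. Their median fold over input was 5.09, 5.84 and 5.05, against 5.37, 6.51 and 5.37. Median region width was 1245 bp against 1599 bp. The other sets missing from 1 list were likewise weaker and narrower than the all-list regions: their median widths were 1232 bp for KO talazoparib, 1221 bp for WT DMSO and 1061 bp for KO DMSO. Their median WT DMSO tag counts were 7.93 where KO talazoparib was missing and 6.23 where KO DMSO was missing. The 3 lists nonetheless placed their peaks together: 3453 members (92.4%) had a stretch common to the highest peaks of all 3 lists, with a median of 500 bp over all members, and the median distance between peak centres was 165 to 176 bp for the 3 pairs of lists. In 3586 members each list had exactly 1 peak.

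A WT talazoparib peak lay within 0.5 kb of 1.69% (1.30 to 2.15) of them and within 5 kb of 20.3% (19 to 21.6), and the median distance was 17.7 kb (16.7 to 18.5). Regions missing only in KO talazoparib were nearer to the KO talazoparib list, with 29.9% (27.5 to 32.4) within 5 kb and a median of 11.0 kb, but that list is longer. The member closest to the rule's edge, near Gadl1, was 5 bp from a WT talazoparib peak, with 6.84 normalized tags in WT DMSO, 14.0 in KO DMSO and 12.4 in KO talazoparib. Members near Cdpf1 and Rab11fip4 followed at 18 and 28 bp. On the other side of the edge, a region near Brd3 shared only 7 bp with a WT talazoparib peak of 2.68 tags, and regions near Gipc2 and Mgat5 shared 14 and 24 bp. Members were also spread out: the median distance to the next member was 73.8 kb, and 12.4% (11.3 to 13.5) had another within 10 kb.

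**Figure D5:**
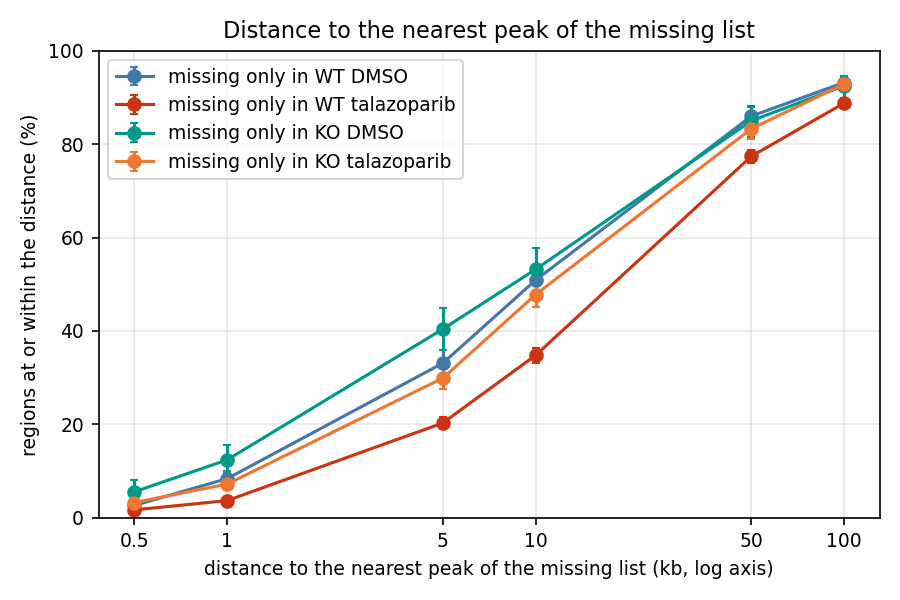
Share of regions (%) with a peak of the missing list at or within the distance on the log axis (kb), for the members and for the regions missing only in each other list; bars are exact 95% binomial intervals. At 5 kb the members reached 20.3%, the lowest of the 4 sets, and at 100 kb 88.8%.

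Short motifs were searched on both strands in the central 300 bases of each region, as a description of sequence and not of binding. The GC box GGGCGG, which contains a CpG, occurred in 39.2% (37.7 to 40.8) of members, 59.2% (57.9 to 60.5) of all-list regions and 35.7% of 32851 RefSeq promoters of 300 bases (250 before to 50 after the start). At promoter regions alone these shares were 60.0% (57.5 to 62.5) and 69.8% (68.3 to 71.2). Over all their regions, the sets missing only in KO talazoparib, WT DMSO and KO DMSO stood at 47.4%, 46.0% and 36.8%, also below the all-list regions. The ETS core CCGGAAG, which also contains a CpG, was found in 8.59% (7.71 to 9.54) of members, 13.1% (12.2 to 14.0) of all-list regions and 8.86% of RefSeq promoters. Its shares in members and all-list regions were 15.1% (13.3 to 17.0) and 16.5% (15.3 to 17.7) at promoters. Outside promoters they were 4.24% (3.44 to 5.16) and 6.03% (4.98 to 7.21), and the intervals overlapped in both cases. Regions missing only in KO talazoparib, WT DMSO and KO DMSO held the ETS core in 8.03%, 12.2% and 7.26%. The E-box CACGTG, which contains a CpG too, did not follow the GC box and ETS core, with 8.35% (7.49 to 9.29) of members, 8.48% (7.76 to 9.24) of all-list regions and 7.15% of RefSeq promoters. The CpG-free CCAAT box, CCAAT, was at 33.0% in both sets and at 37.4% of RefSeq promoters. At promoters its shares in members and all-list regions were 35.5% (33.1 to 38.0) and 36.0% (34.5 to 37.6). Outside promoters they were 31.3% (29.4 to 33.3) and 26.7% (24.7 to 28.8). It was in 25.7%, 31.3% and 22.6% of regions missing only in KO talazoparib, WT DMSO and KO DMSO. The CpG-free TATA box, TATAAA, was found in 7.26% (6.44 to 8.13) of members, 4.22% (3.71 to 4.78) of all-list regions and 13.6% of RefSeq promoters. It was in 5.50%, 5.31% and 3.63% of regions missing only in KO talazoparib, WT DMSO and KO DMSO, and in 8.77% of all merged regions. The octamer ATGCAAAT, bound by POU factors such as OCT4, was found in 2.44% (1.97 to 2.98) of members and 1.26% (0.985 to 1.59) of all-list regions, against 1.74% of RefSeq promoters. Outside promoters the shares were 3.08% (2.40 to 3.88) and 1.85% (1.28 to 2.57), with overlapping intervals. The octamer was in 1.56% (0.969 to 2.38) of regions missing only in KO talazoparib. It was in 1.71% (1.05 to 2.63) of those missing only in WT DMSO and 2.14% (1.03 to 3.89) of those missing only in KO DMSO. These intervals overlap that of the members, and all merged regions stood at 1.77%. A G-quadruplex pattern, 4 runs of at least 3 G with spacers of up to 7 bases, was found in 19.6% (18.3 to 20.9) of members and 25.9% (24.8 to 27.1) of all-list regions, and in 18.6% of RefSeq promoters. Regions missing only in KO talazoparib, WT DMSO and KO DMSO held it in 21.9%, 22.9% and 19.9%.

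Protein-coding genes were counted when a member overlapped the gene body or lay within 5 kb. This held for 3432 of 20780 genes, 16.5%, and 1490 genes, 7.17%, had a member and no WT talazoparib peak anywhere in that span. Genes with a member were longer, with a median of 24.9 kb against 17.6 kb for all, so counts for lists of long or short genes are not directly comparable with the 16.5%. The most members, 19, lay in Gm20388, an annotated locus of 4435 kb that spans many genes, followed by 8 in Fgfr2, a fibroblast growth factor receptor annotated here over 2961 kb. Apc2, a relative of the Wnt inhibitor APC, had 5 members in its body of 22.3 kb or within 5 kb of it. The same span held 9 peaks in WT DMSO, 8 in KO DMSO, 5 in KO talazoparib and 1 in WT talazoparib. Ryr1, a calcium release channel, also had 5, with 20, 12, 10 and 4 peaks in the same order. Tanc1, a scaffold protein gene of synapses, had 4 members, with 10, 12, 7 and 1 peaks.

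Nrp2, a co-receptor for semaphorins and VEGF, was the gene with most members among those with no WT talazoparib peak: 4 members, with 8 peaks in WT DMSO, 8 in KO DMSO and 5 in KO talazoparib. Capzb, which caps actin filaments, had 3 members and 9, 9 and 5 peaks. Gtse1, a cell cycle gene linked to p53, had 3 members and 4 peaks in each of the 3 lists. Sulf1, a sulfatase of heparan sulfate, had 3 members and 3, 7 and 4 peaks. The ribosomal protein gene Rps15 had 3 members although it is only 1.66 kb long, but it is a neighbour of Apc2. The spans counted for these genes overlap, so a member can count for both.

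Of the 18 gene lists looked at, 14 had a share of genes with a member above the 16.5% of all protein-coding genes, and 15 had a share of genes with a member and no WT talazoparib peak above the 7.17% of all, so shares above both are common to lists of very different function, and none was tested. Among genes of the pluripotent state, 9 of 25 naive pluripotency genes (36.0%) had a member. Of the 9, 2 had no WT talazoparib peak, Sall4 and Sox2, which is 8.00% of the list and close to the 7.17% of all genes. The Sall4 promoter, a zinc finger factor of the pluripotency network, had 30.3 tags in WT DMSO, 64.3 in KO DMSO and 57.1 in KO talazoparib. The Sox2 promoter member had 14.3, 51.3 and 37.8 tags. Of 16 genes of the primed epiblast, 8 (50.0%) had a member and 5 of these had no WT talazoparib peak, 31.2% of the list against 7.17% of all genes. The member at Zic2, a zinc finger factor gene, had 8.91, 60.9 and 39.6 tags, so the WT DMSO peak was far weaker than both KO peaks. That near Otx2, a homeobox factor of epiblast and forebrain, had 9.60, 16.9 and 9.94 tags.

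Of 26 genes of DNA methylation and demethylation, 9 (34.6%, against 16.5% of all genes) had a member. The intronic member of Tet1, which oxidises 5-methylcytosine and so makes TDG substrates, had 5.86 tags in WT DMSO, 34.6 in KO DMSO and 13 in KO talazoparib. Dnmt3a, a de novo methyltransferase, had 2 members and no WT talazoparib peak against 5, 7 and 4 peaks in WT DMSO, KO DMSO and KO talazoparib. Smug1, another uracil-excising glycosylase, also had 2 members and no WT talazoparib peak. Of 28 genes of base excision and single-strand break repair, 6 (21.4%, close to the 16.5% of all genes) had a member. Among them was the promoter of Parp1, the main target of talazoparib, with 18.8, 33.2 and 43.5 tags. A WT talazoparib peak lay only 1.42 kb from this member. The Parp3 promoter had 24.0, 42.0 and 37.6 tags, with a WT talazoparib peak 3.91 kb away. That of Tdp1, which clears blocked 3′ ends, had 17.7, 32.7 and 20.5 tags, and the gene had no WT talazoparib peak. Of 26 genes of homologous recombination and the Fanconi pathway, 10 (38.5%) had a member and 5 of these (19.2% of the list, against 7.17% of all genes) no WT talazoparib peak, such as Rad51c with 11.5, 21.5 and 27.2 tags and Chek2 with 10.8, 25.2 and 28.4. Genes of this list are long, with a median of 41.2 kb against 17.6 kb for all, so its shares are not directly comparable with those of all genes.

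In signalling, 9 of 26 genes of the FGF-ERK pathway (34.6%) and 7 of 24 of the canonical Wnt pathway (29.2%) had a member, against 16.5% of all genes. Median gene length was 30.8 kb and 37.0 kb in these lists, against 17.6 kb for all genes. Spry4, a feedback inhibitor of FGF signalling, had 22.8, 29.2 and 37.1 tags at its promoter. Gsk3a, a kinase that restrains beta-catenin and is a target of one of the 2i inhibitors, had 27.4, 33.8 and 37.8 tags at its promoter and no WT talazoparib peak. Axin2, a Wnt target and inhibitor, had 20.2, 31.7 and 37.8. Of 18 p53 targets 6 (33.3%) had one, the strongest at the promoter of Bbc3, which encodes the pro-apoptotic protein PUMA, with 19.5 tags in WT DMSO, 40.0 in KO DMSO and 68.9 in KO talazoparib. At Ccng1 the order was the other way, with 16.6, 16.6 and 3.91 tags.

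Gene lists named for silenced and for constitutively active genes both held hosts, again to be read against the 16.5% of all genes. Whether the genes were silent or active in these cells was not tested. Of 44 polycomb-silenced developmental regulators 13 (29.5%) had a member, such as Olig2 with 27.0, 40.6 and 34.3 tags in WT DMSO, KO DMSO and KO talazoparib. Of 35 imprinted genes 10 (28.6%) had one, including Nnat with 12.3, 36.4 and 16.2 tags. Of 79 cytosolic ribosomal protein genes 22 (27.8%) had one, and so did 22 of 67 replication-dependent histone genes (32.8%), which are clustered, so that a single region near Hist1h2ah counted for 3 of the histone genes named by the rule. Of 23 housekeeping genes 10 (43.5%) had a member, such as the ubiquitin gene Ubb with 31.8, 59.1 and 51.2 tags. For genes of other cell types and states the counts were near or below that share: 4 of 18 genes of extraembryonic endoderm (22.2%), 3 of 19 germline genes with methylated promoters (15.8%), 3 of 24 very large late-replicating genes (12.5%), and none of 15 fibroblast genes or 10 genes of the two-cell state. Of these, 7 of the 15 fibroblast genes had a peak in any list, and none of the 10 two-cell genes did.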

How the data were processed

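SSB-seq was measured in 16 libraries: 12 IP libraries, 3 for each of 4 conditions, and 4 input libraries, taken as pooled by the authors into 1 peak list per condition. Per the submitters' processing notes, Bowtie2 2.3.4.2, Picard 2.9.2, HOMER 4.11 and R 3.6 were used with mm10, with roles and settings not given in the sources used here; per the file headers the columns are those of HOMER's findPeaks. The authors' normalized tag count is an IP signal per 10000000 tags, and the deposited input column is a signal in steps of tags. The authors' fold is the ratio of IP to input tags, with another column (other) holding IP tags scaled to the input. The deposited p-value was used only to give the list's own limit (at most 8.32e-05), and the authors' score only to rank peaks within a list.

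Peaks of chromosomes 1 to 19 were merged with Python 3.11.15, numpy 2.4.6, pandas 2.3.3 and scipy 1.17.1. Coordinates are those of the lists, whose ends lie just past the last base counted. The code was tested on simulated intervals. Features at region centres came from GENCODE M21 (GRCm38.p6), in the order promoter, transcript end (100 bp upstream to 1 kb downstream), exon, intron, intergenic. IP totals came from the step between low normalized counts (100% of values on the step, within 0.0051), and density is relative to 2648 Mb of sequenced bases. Members and gene lists were chosen with earlier results of these data known. Named genes are the first 25 members by lowest within-list rank, up to 6 genes per list in that order, and the 10 genes with most members; for genes with no WT talazoparib peak the same ordering was used. The alternatives tried were a fold of 6, at least 3 input tags, equal list lengths, other merging, chromosome X, and other promoter, distance and window settings. Peaks of chromosome Y, the mitochondrial genome and unplaced contigs were left out. Some named members and sequences are not reported here.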

Additional observations from a re-analysis of the deposited data

Results flagged for a closer look

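Chromosome X was outside the rule that chose the members, but it held regions of the same kind. Of 206 regions of chromosome X with peaks in WT DMSO, KO DMSO and KO talazoparib, 88 had no WT talazoparib peak, 42.7% (exact 95% interval 35.9 to 49.8), against 39.8% (38.9 to 40.8) on chromosomes 1 to 19. The intervals overlap. The mitochondrial genome and unplaced contigs gave 1 of 7 such regions.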

How the results depend on the processing

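No paired analysis was possible because each list pools the replicates of its condition, and for the same reason no replicate could be left out. The number of members was 3735. It was 493 with a fold of at least 6 and 1589 with lists of equal length, and 3665 to 3938 under the other merging rules or with chromosome X. With at least 3 input tags it was 3780, but not of the same regions by necessity, as set out below. The share of three-list regions without a WT talazoparib peak, 39.8%, became 59.4% with a fold of at least 6, 49.8% with at least 3 input tags and 31.2% with equal lengths. The promoter share of members, 40.0%, became 68.6%, 49.6% and 54.6% under these 3 settings, 51.7% with promoters from 2 kb upstream to 500 bp downstream, and 36.2% with protein-coding starts only. Median GC, 53.1%, became 56.6%, 53.9% and 55.6%, and 56.0% over the central 300 bp. Median CpG per 100 bp, 2.59, became 5.36, 3.52 and 4.45, and 3 over the central 300 bp. The share within 5 kb of a WT talazoparib peak, 20.3%, became 11.6%, 7.94% and 22.3%, 18.8% with peaks merged within 500 bp, and 3.69% with a limit of 1 kb. Requiring 100 bp of overlap or adding chromosome X left all 6 values within the counting interval or, for the number, within 1.5 times. Under a fold of 6, 3 input tags and equal lengths fewer peaks enter. The limits on fold and on input tags also drop WT talazoparib peaks, so that former all-list regions can count as members. The median input count of WT talazoparib peaks was 2.00, the lowest of the 4 lists. With at least 3 input tags the all-list regions went from 5638 to 3804. Beyond that the cause was not tested. Under all 3 settings the members' promoter share lay below that of the all-list regions, which was 77.7%, 77.3% and 73.3%. Peaks with few input tags limit the precision: the median input count at a member was 5.00 to 5.50 tags.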
